A study of Mus musculus with 3 samples.

Results

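The genes described here are the metalloproteinases and their tissue inhibitors in EpH4-PR cells, that is, every gene on the array called Mmp, Timp, Adam or Adamts with a number. The rule for membership used the name and no measured value. They came to 69 genes and 118 probes, of 29273 gene names and 41174 probes on the array. There were 21 Mmp genes with 28 probes, 4 Timp genes with 6 probes, 28 Adam genes with 49 probes and 16 Adamts genes with 35 probes. EpH4 is a normal mouse mammary epithelial cell line. EpH4-PR cells are EpH4 cells stably transfected with the A form of the progesterone receptor (PR), selected as clones, kept under neomycin (G418) and grown in medium with serum. How many clones the RNA came from, and whether the arrays were of separate cultures, is not given in the sources used here, so p-values measure the spread between these arrays, which may be technical. RNA of EpH4-PR cells, labelled with Cy5, was hybridized on 3 arrays, each beside a commercial mouse reference RNA (Stratagene mouse standard) labelled with Cy3. Cells with the empty vector (EpH4-EV) were not analysed here. Each log2 ratio therefore gives a level in EpH4-PR cells relative to the reference RNA, whose makeup is not given in the sources used here, and is not an effect of PR. The dyes were the same way round on all 3 arrays. A difference between dyes at a probe therefore cannot be told apart from a difference in RNA level, whatever its p-value.

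Matrix metalloproteinases (Mmps) are secreted or membrane-bound zinc enzymes that cut collagens, laminins and other matrix proteins, and Timps bind their active sites and block them. Adams are membrane proteins, many of which release growth factors and receptors from the cell surface, and Adamts enzymes are secreted proteases that cut proteoglycans or process procollagen. In the mammary gland these proteins are known for their part in duct branching and in the regression of the gland after weaning. Many are made as inactive precursors, so an mRNA level is not an activity.

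A block of Mmp genes lies side by side on mouse chromosome 9. In the RefSeq gene table used here it holds 10 Mmp genes with 0 other protein-coding genes between the first and the last, and 8 of them were on the arrays. The promoters of this block are shown because they share letters that the choice of genes did not use. RefSeq promoter sequences (assembly GRCm38.p6, from 250 bases before to 50 bases after each annotated start) were found by symbol for 40 of the 69 genes. The windows were searched for TGAGTCA on either strand, the motif of AP-1 (Fos and Jun family dimers), and for TATAAA on the strand of the gene, the letters of a TATA box. Matches of these motifs cannot overlap each other. The 40 genes had 45 windows, and a gene was counted where any of its windows matched. The motif TGAGTCA was found for 9 of the 40 genes (22.5%), against 1607 of the 27025 genes with a promoter entry (5.95%). In the chromosome 9 block it was found for 6 of 8 genes (75%), between 35 and 73 bases before the annotated start. In each of those 6 it was followed by TATAAA, an order found in 118 of all genes (0.437%). The TATAAA lay from 29 bases before the annotated start to 4 bases after it, the latter in Mmp12. Outside the block TGAGTCA was found for 3 of 32 genes (9.38%), namely Adam19, Adam1b and Adam29. The windows of Mmp8 and Mmp20, also in the block, held no such match. The stretch around both motifs is printed below for the 6 genes, in their order along the chromosome, and around TGAGTCA for Adam19, since its probe gave the highest ratio of all 118. The strand is that of the gene, all plus, and capitals mark the motifs (TGACTCA is TGAGTCA read on the other strand). A match is a description of these letters and not a measured binding site.
Mmp13 (chr9:7272459-7272513): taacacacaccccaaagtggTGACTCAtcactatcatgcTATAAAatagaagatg
Mmp12 (chr9:7347310-7347393): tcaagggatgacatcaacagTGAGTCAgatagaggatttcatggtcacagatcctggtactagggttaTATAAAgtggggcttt
Mmp3 (chr9:7445756-7445830): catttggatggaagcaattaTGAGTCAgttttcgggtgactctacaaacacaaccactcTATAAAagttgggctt
Mmp1a (chr9:7464048-7464128): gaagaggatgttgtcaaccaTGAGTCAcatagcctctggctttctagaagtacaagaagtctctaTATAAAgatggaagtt
Mmp10 (chr9:7502259-7502328): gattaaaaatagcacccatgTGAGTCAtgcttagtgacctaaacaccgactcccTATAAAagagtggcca
Mmp7 (chr9:7692007-7692079): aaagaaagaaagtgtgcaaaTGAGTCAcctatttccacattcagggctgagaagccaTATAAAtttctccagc
Adam19 (chr11:46055833-46055879): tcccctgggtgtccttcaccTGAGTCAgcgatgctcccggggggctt

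The arrays had a median Cy5 intensity of 93.8 to 113 arbitrary units, against 57.3 to 74.1 units for the median negative control spot. A probe was taken as measured where the scanner software marked it well above its local background. Such a mark was common, with 68.9% of all probes bearing it for EpH4-PR RNA on each of the 3 arrays. By a stricter measure, chosen after the values were seen, 66.8% of all probes were above the 95th percentile of the 314 negative control spots on all 3 arrays. Of epithelial marker probes, 6 of 7 were higher than the reference by 1 log2 unit or more, led by Cdh1 (4.29), and the probe for Krt19 was lower (-2.62). Of the other cell types' marker probes, 8 of 14 for fibroblasts, 4 of 12 for leukocytes and 0 of 5 for endothelium were at least 1 log2 unit lower, and none was higher by that much. The summed Cy5 intensity was 90923 to 106809 units over the 7 epithelial probes, 3745 to 4290 over the 14 fibroblast probes, 1342 to 1625 over the 12 leukocyte probes and 327 to 419 over the 5 endothelial probes. These sums hold the signal that negative control spots also gave, and they are not compared between lists. The 2 probes for the progesterone receptor gene Pgr were well above background in EpH4-PR cells on 1 of 3 arrays each, with mean log2 ratios of -0.11 and -0.19. Whether they lie in the transfected sequence is not given in the sources used here.

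Most metalloproteinase genes gave a signal in EpH4-PR cells, as did most genes on the array, and few stood far from the reference. In the EpH4-PR channel 75 of the 118 probes (63.6%) bore this mark on every array, against 68.9% of all probes. Above the negative control spots on all arrays were 69 (58.5%), against 66.8% of all probes. By gene, 50 of 69 had a probe of the first kind, against 20449 of 29273 over all gene names. A probe of the second kind was found for 47 of 69, against 19895 of 29273. In the reference channel fewer probes cleared the negative control spots on all arrays, 27 of the 118 and 13669 of all 41174. Many ratios thus rest on a reference signal near that of negative control spots. No probe of 11 genes was well above background in EpH4-PR cells on any array, namely Mmp8, Mmp13, Mmp16, Mmp20, Adam22, Adam23, Adam24, Adam29, Adamts6, Adamts13 and Adamts19. Fewer cells with a transcript and less of it per cell cannot be told apart in such bulk RNA. Ratios were tested against 0 with limma, with Benjamini-Hochberg adjustment over 41171 probes. At an adjusted p under 0.05, 19 of the 118 probes (16.1%) were higher in EpH4-PR cells, against 25.7% of all probes, and 35 (29.7%) were lower, against 24.6%. Of these 54 probes, 45 were under 1 log2 unit from the reference. With a ratio of at least 1 log2 unit asked for as well, 2 probes (1.69%) were higher, against 2.26% of all probes, and 7 (5.93%) were lower, against 3.83%. The split between directions moved with the scaling, to 8 higher and 5 lower with median centring in place of loess, and to 6 higher and 20 lower with the ratio of the scanner software. Shares of all probes beyond 1 log2 unit under those settings are not given here. The median log2 ratio was -0.08 over the 118 probes and -0.01 over all probes, and the members ran from -3.31 to 1.28. The plot of ratio against brightness shows the probes with large ratios and their intensities.

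**Figure D1:**
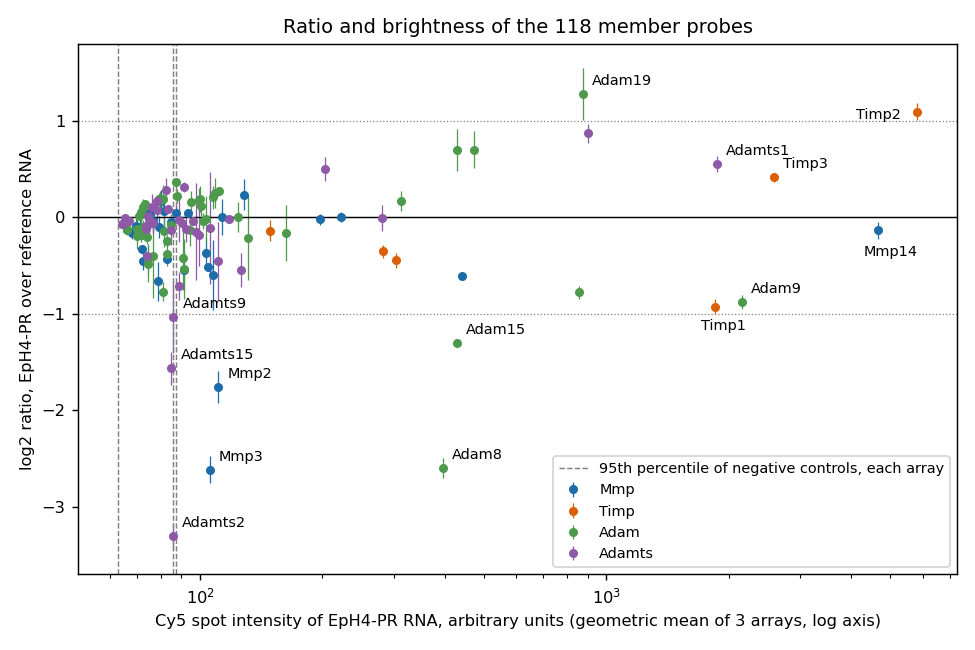
Mean log2 ratio between EpH4-PR and reference RNA (vertical axis, bars 1 SD, n = 3 arrays) against the Cy5 spot intensity in arbitrary units (log axis) for the 118 probes, coloured by family. Dotted lines mark 1 log2 unit either way and dashed lines the 95th percentile of negative control spots on each array. Most probes sit near 0 and near the dashed lines, while Timp2, Adam19 and Adam8 are well to the right of them and Mmp3, Mmp2 and Adamts2 are close to them.

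The inhibitors were all measured in EpH4-PR cells. After loess 2 of their 6 probes passed as higher and 3 as lower (25.7% and 24.6% of all probes did). With median centring all 6 passed as higher, as did 42.5% of all probes. Timp2, which blocks most Mmps and also joins Mmp14 in the activation of pro-Mmp2, was higher in EpH4-PR cells. Its log2 ratios were 1.06, 1.19 and 1.03 (mean 1.09 ± 0.08 SD, n = 3), or 2.13-fold, with an adjusted p of 8.54e-05 by limma, at Cy5 intensities of 5408 to 6177 units. Timp3, a matrix-bound inhibitor that also blocks Adam17, had log2 ratios of 0.43, 0.46 and 0.37 (mean 0.42, adjusted p 0.00126 by limma). The ratio of both rose further with median centring, to 2.50 for Timp2 and 1.74 for Timp3. Timp1, an inhibitor often made under growth factors and cytokines, was lower with its 3 probes, at means of -0.93, -0.45 and -0.35 (adjusted p from 0.000124 to 0.00291 by limma), but all 3 turned to values from 0.39 to 0.43 with median centring. For the Timp1 probe at -0.93 the uncorrected intensity was 1758 to 2025 units in the EpH4-PR channel and 1240 to 1311 units in the reference channel, so its sign before and after loess was not the same. Timp4, a less widely expressed inhibitor, had log2 ratios of -0.04, -0.26 and -0.13 (mean -0.14, adjusted p 0.0972), which turned to 0.19 with median centring and to 0.06 with the ratio of the scanner software. Timp2 and Timp3 were thus above 0 on every array, and Timp2 alone of the inhibitors was beyond 1 log2 unit, except that Timp3 was too with median centring and the lowest Timp1 probe, just past -1, with the scanner software's ratio.

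**Figure D2:**
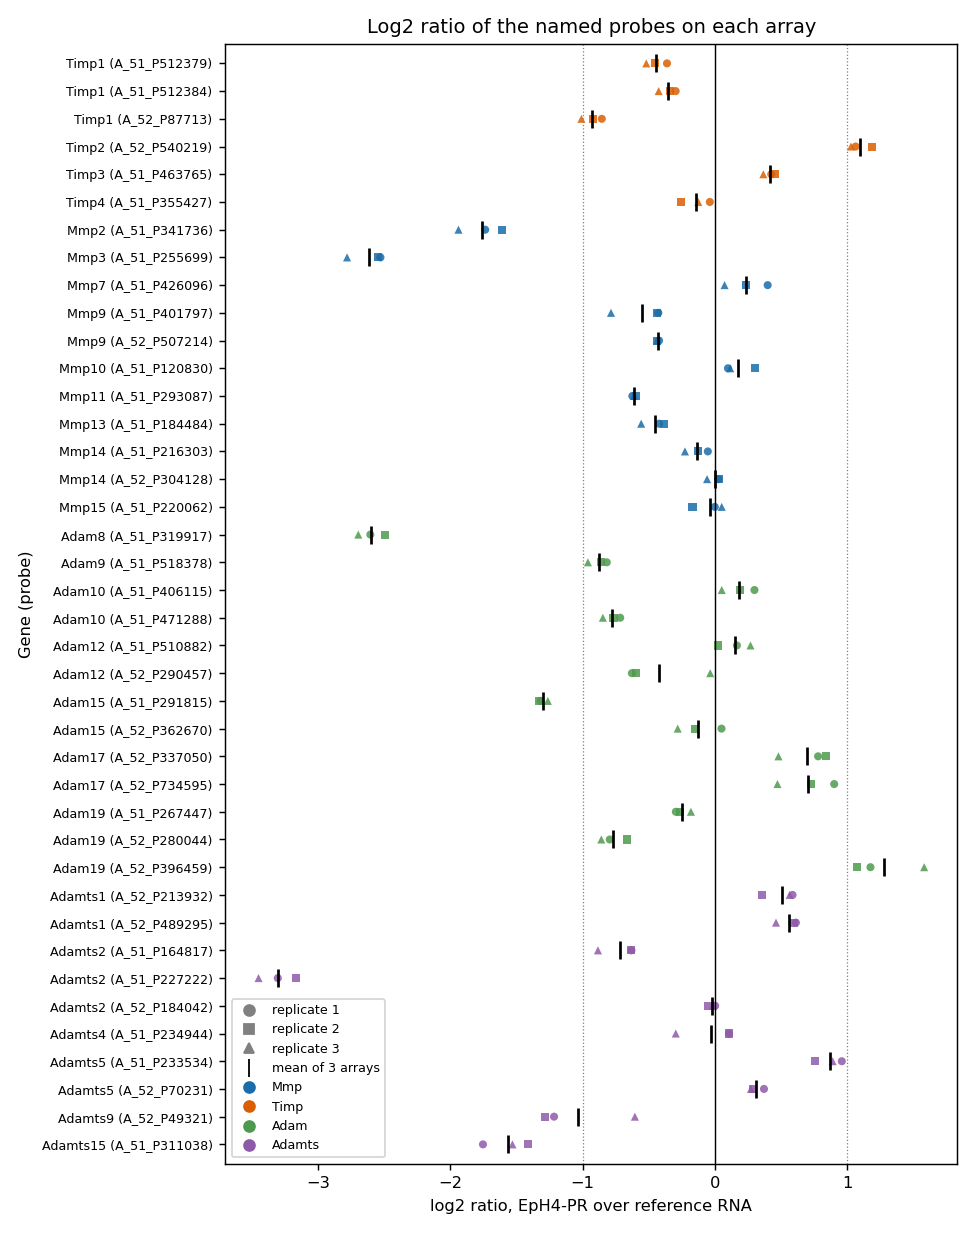
Log2 ratio between EpH4-PR and reference RNA (horizontal axis) on each of the 3 arrays for the 40 probes of the named genes, coloured by family; a vertical tick marks the mean and dotted lines mark 1 log2 unit either way. Arrays lie close together for Timp2, Mmp3, Adam8 and the lowest Adamts2 probe, and apart for Adam12 and Adamts9.

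The gelatinases and stromelysins held the Mmp probes farthest from the reference, both lower in EpH4-PR cells. Mmp3 (stromelysin 1), which cuts many matrix proteins and can activate other Mmps, had log2 ratios of -2.53, -2.54 and -2.78 (mean -2.62 ± 0.14 SD, n = 3), or 6.14-fold lower, with an adjusted p of 2.25e-05 by limma. Mmp2 (gelatinase A) had log2 ratios of -1.74, -1.61 and -1.94 (mean -1.76 ± 0.17 SD, n = 3), or 3.39-fold lower, with an adjusted p of 6.38e-05. Neither gene had an array near 0, and both kept their direction and a size over 1 log2 unit under each of the 13 alternatives, from -3.88 to -1.97 for Mmp3 and from -2.80 to -1.26 for Mmp2. Their EpH4-PR signal was small, at 97.8 to 112 units for Mmp3 and 98.1 to 120 units for Mmp2, though above the negative control spots on all arrays. Both are known as products of fibroblasts, whose marker probes were also lower than the reference here, and the part of such cells in these ratios was not tested.

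The other named Mmps lay nearer to the reference. Mmp9 (gelatinase B), with means of -0.55 and -0.43, was lower with both probes (adjusted p 0.00487 and 0.000822 by limma). Both Mmp9 probes were dim, at 69.9 to 98.5 units in the EpH4-PR channel. They were above the negative control spots on all arrays there, but on 1 of 3 arrays in the reference channel. Mmp11 (stromelysin 3), a stromal enzyme of the regressing gland, had log2 ratios of -0.62, -0.60 and -0.61 (adjusted p 0.000252), which turned to 0.38 with median centring. Mmp7 (matrilysin), an enzyme of glandular epithelium, had log2 ratios of 0.40, 0.23 and 0.07 (mean 0.24, adjusted p 0.0463) and no longer passed under 7 of the 13 alternatives, among them without replicate 1 (0.15), without replicate 2 (0.24) and with the median spot intensity (0.18). Mmp10 (stromelysin 2) had a mean of 0.17 (adjusted p 0.0603). Mmp14, the membrane-type enzyme that activates pro-Mmp2, was bright with 1 probe (4249 to 5295 units) yet near the reference, at -0.05, -0.13 and -0.23 (adjusted p 0.0832), and its other probe had a mean of -0.00. Both Mmp14 probes turned to higher values with median centring, 1.29 and 0.59, so a level like that of the reference cannot be read from the loess ratio alone. Mmp15, another membrane-type enzyme, was well above background in EpH4-PR cells on 1 of 3 arrays (mean log2 ratio -0.04). Mmp13 (collagenase 3) was not well above background in EpH4-PR cells on any array and was on all arrays in the reference. Its log2 ratios were -0.42, -0.39 and -0.56, or 1.37-fold lower on average (adjusted p 0.00167 by limma). In the reference it was above the negative control spots on 1 of 3 arrays. For a bound on such a probe, the dim side was taken at the higher of its own signal and the lowest signal of any probe well above background on that array. The bound for Mmp13 came out equal to its mean ratio, so it is not a lower limit.

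By role, 3 of 3 gelatinase probes and 2 of 4 collagenase probes passed as lower and none as higher. Of the 4 probes for stromelysins and matrilysin, 2 passed as lower and 1 as higher. Of the 10 probes for membrane-type Mmps, 3 passed as lower (both of Mmp16 and 1 of Mmp24) and 7 did not pass. The remaining 7 Mmp probes gave 2 lower (Mmp12 and Mmp23) and 5 that did not pass. Over all 28 Mmp probes this made 12 lower (42.9%, against 24.6% of all probes) and 1 higher (3.57%, against 25.7%), with a median log2 ratio of -0.11. Of the 12, the Mmp13 and Mmp16 probes were well above background in EpH4-PR cells on no array. With median centring 20 Mmp probes were lower and 5 higher (all probes: 40.8% and 42.5%). Without each array in turn 9 to 11 were lower and 0 to 1 higher (all probes: 17.7% to 25.9% and 17.6% to 27.0%).

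The genes of the chromosome 9 block, whose promoter letters are printed above, did not share a ratio. Of their 9 probes, 4 passed as lower (Mmp13, Mmp12, Mmp3 and 1 of the Mmp1a probes) and 1 as higher (Mmp7). Over all probes, 24.6% passed as lower and 25.7% as higher. Mmp3 alone was beyond 1 log2 unit at the same threshold. With the scanner software's ratio Mmp12 (-2.29) and Mmp13 (-2.04) were too. With normexp offset 0, so were Mmp12 (-1.57), Mmp13 (-1.39) and an Mmp1a probe (-1.04). That Mmp1a probe no longer passed without replicate 1 (-0.46), without replicate 2 (-0.53), with the ratio of the scanner software (-1.01) or in a plain test of each probe alone. In EpH4-PR cells 5 of the 9 probes, from 4 genes, were well above background on all arrays. Only 3 probes, for Mmp3, Mmp1a and Mmp7, were above the negative control spots on all arrays. The 6 genes with TGAGTCA and TATAAA near their start thus ran from -2.62 for Mmp3 to 0.24 for Mmp7. The 2 probes for Mmp1a, a collagenase, had means of 0.06 and -0.60 and SDs of 0.17 and 0.36. The 2 genes without the motif in the window, Mmp8 and Mmp20, had means of -0.09 and 0.02 and were not well above background in EpH4-PR cells on any array.

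**Figure D3:**
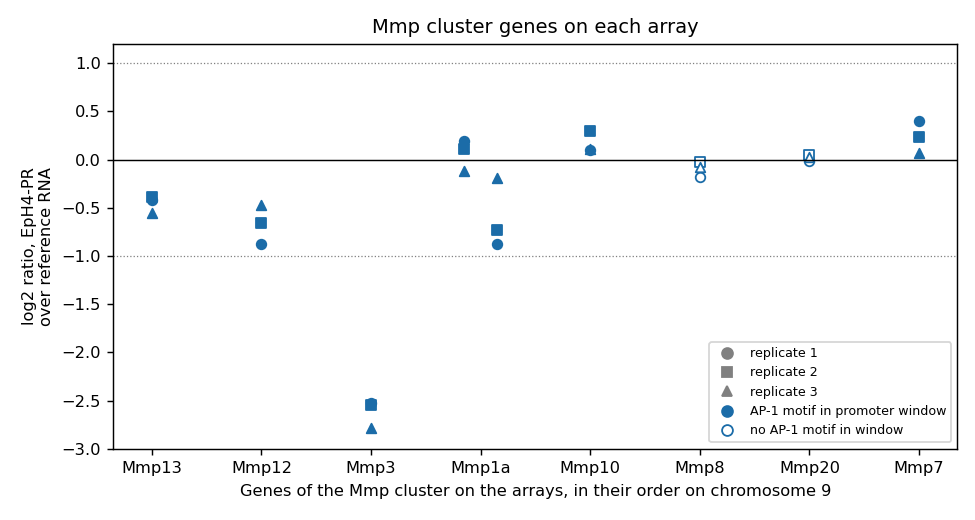
Log2 ratio between EpH4-PR and reference RNA (vertical axis) on each of 3 arrays for the 9 probes of the Mmp genes of chromosome 9, in gene order along the chromosome; filled symbols are genes with TGAGTCA on either strand in the promoter window, open symbols genes without it. Mmp3 lies between -2.78 and -2.53 and all other probes between -1 and 1.

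Among the Adams, those with sheddase activity in many tissues held the large ratios. Adam8, best known from leukocytes, was lower, at -2.61, -2.50 and -2.70 (mean -2.60 ± 0.10 SD, n = 3), or 6.06-fold, with an adjusted p of 1.81e-05 by limma. Its signal in EpH4-PR cells was 376 to 416 units, well clear of the negative control spots, and with median centring the ratio was -1.44. Adam17, which releases tumour necrosis factor and the ErbB ligand amphiregulin and is needed for mammary duct growth, was higher with both probes. These read 0.78, 0.84 and 0.48 for 1 probe and 0.90, 0.72 and 0.47 for the other, each with a mean of 0.70, or 1.62-fold (adjusted p 0.00174 and 0.00241 by limma). Neither Adam17 probe passed in a plain test of each probe alone after Benjamini-Hochberg adjustment. Adam10, which cuts Notch receptors and E-cadherin, had log2 ratios of -0.72, -0.77 and -0.85 with its bright probe (adjusted p 0.000188) and a mean of 0.18 with its dim one (adjusted p 0.0611). Adam9, a widely expressed Adam, had log2 ratios of -0.82, -0.86 and -0.96 (mean -0.88, adjusted p 0.00014). The lower values of Adam9 and of the bright Adam10 probe turned to 0.49 and 0.42 with median centring. Adam12, a stromal and muscle Adam, had means of 0.15 and -0.42, and the latter rested on replicates 1 and 2 (-0.63 and -0.60, against -0.04 on replicate 3). That Adam12 probe passed narrowly (adjusted p 0.0456) and no longer passed under 7 of the 13 alternatives, among them without replicate 1 (-0.32), without replicate 2 (-0.33) and with the median spot intensity (-0.21). Of the 18 probes for these 9 sheddases, 4 passed as higher and 7 as lower (25.7% and 24.6% of all probes did).

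For Adam15 and Adam19 the answer depended on the probe. Adam15, an Adam that also binds integrins, had a bright probe at -1.32, -1.33 and -1.26 (mean -1.30 ± 0.03 SD, n = 3, 2.47-fold lower, adjusted p 3.58e-05 by limma), and with median centring it read -0.24. Its other probe, at 79.2 to 106 units, read 0.05, -0.15 and -0.28 (adjusted p 0.203). Adam19, which can process neuregulin, had a bright probe at 1.18, 1.07 and 1.58 (mean 1.28 ± 0.27 SD, n = 3, 2.42-fold higher, adjusted p 0.000537). Its other probes read -0.77 and -0.25 on average, with EpH4-PR signals of 73.2 to 89.6 units. Those dim Adam19 probes were above the negative control spots in EpH4-PR cells on 1 and 2 of the 3 arrays, and the bright one was on all arrays. The dim probes passed as lower (adjusted p 0.000307 and 0.00941 by limma) at under 1 log2 unit, beside a probe of the same gene higher by over 1 log2 unit. The weaker of the dim probes no longer passed without replicate 1 (-0.22) or without replicate 2 (-0.24).

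After loess the remaining Adams were within 1 log2 unit of the reference. The 16 genes known mainly from testis and epididymis had 25 probes, of which 5 passed as higher and 5 as lower, between -0.54 and 0.27. Over all probes, 25.7% passed as higher and 24.6% as lower. Of the 25 probes, 10 were above the negative control spots in EpH4-PR cells on all arrays, against 66.8% of all probes. Adam11, Adam22 and Adam23, brain proteins that lack a working active site, had 6 probes, of which 1 passed as higher (Adam11, 0.36) and 2 as lower (Adam22, -0.13, and 1 of the Adam23 probes, -0.48). The Adam22 and Adam23 probes were not well above background in EpH4-PR cells on any array.

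The Adamts genes held the lowest ratio of all 118 probes. It belonged to Adamts2, which removes the amino-terminal propeptide of fibrillar procollagens, at -3.31, -3.17 and -3.45 (mean -3.31 ± 0.14 SD, n = 3), or 9.90-fold lower, with an adjusted p of 1.74e-05 by limma, and from -5.20 to -2.65 over the alternatives. The other Adamts2 probes had means of -0.72 (adjusted p 0.000795) and -0.02 (adjusted p 0.683). In the reference channel the first read 458 to 495 units and the other 2 read 107 to 166 units, where the 95th percentile of negative control spots was 107 to 168 units. In the EpH4-PR channel the first read 90.4, 91.3 and 76.4 units on replicates 1, 2 and 3, close above the 95th percentile of negative control spots there (85.9, 87.4 and 62.9 units). For Col1a1, which encodes a chain of its substrate, probes read -5.03, -2.16 and -0.26. Over 38 collagen chain genes with 71 probes, 2 probes were called higher by 1 log2 unit (2.26% of all probes were) and 15 were called lower (3.83% of all probes were).

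Among the Adamts genes that cut proteoglycans such as versican and aggrecan, probes lay on both sides of the reference. Adamts5 read 0.96, 0.76 and 0.89 (mean 0.87, 1.83-fold, adjusted p 0.000216 by limma) with its bright probe, and 0.31 on average with its dim one (adjusted p 0.00398). Adamts1, a gene of the ovary and of growing vessels, read 0.61, 0.59 and 0.46 (mean 0.56, adjusted p 0.000729) and 0.59, 0.36 and 0.56 (mean 0.50, adjusted p 0.0021). Both probes of Adamts1 and both of Adamts5 were thus above 0 on every array. Adamts4 read 0.11, 0.11 and -0.30 (adjusted p 0.822). Adamts15 read -1.75, -1.42 and -1.53 (mean -1.57, 2.96-fold lower, adjusted p 9.06e-05), and 1 Adamts9 probe read -1.22, -1.29 and -0.61 (mean -1.04, 2.05-fold lower, adjusted p 0.00326). These last 2 probes fell outside the rule for named genes, since the EpH4-PR channel was well above background on 2 of 3 arrays, and they were named after their values were seen. The other Adamts9 probes had means of -0.11 and -0.04. The Adamts9 probe was under 1 log2 unit with median centring (-0.94), with the median spot intensity (-0.98), without replicate 1 (-0.95) and without replicate 2 (-0.91). In all, 5 of these 15 probes passed as higher and 2 as lower (25.7% and 24.6% of all probes did). Of the 17 probes for the other 8 Adamts genes, 1 passed as higher (an Adamts10 probe), 2 as lower (an Adamts7 probe and Adamts13) and 14 did not pass.

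How far probes of a gene matched could be seen for 17 genes with at least 2 probes marked in both channels on every array, and 3 of these (Adam15, Adam19 and Adamts2) had probes at least 1 log2 unit apart. The median SD between arrays was 0.10 log2 units over the 118 probes and 0.09 over all probes. Of the 10 probes with an SD over 0.3, 9 were below 200 units in both channels on all arrays. The 26 probes that were well above background on no array in EpH4-PR cells included 9 that passed as lower.

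Genes that regulate or partner these proteases went beyond 1 log2 unit on both sides. The list held 21 genes with 34 probes on the arrays, and 13 probes passed as higher (25.7% of all probes did), 10 as lower (24.6% of all probes did) and 11 did not pass. At 1 log2 unit, 5 were higher and 6 lower (2.26% and 3.83% of all probes were), against 12 higher and 1 lower with median centring. The probes higher by this much were for the membrane serine protease matriptase (St14, 1.82), its inhibitor Spint1 (1.70 and 1.80) and the iRhoms Rhbdf1 (1.15) and Rhbdf2 (1.37), which carry Adam17 to the cell surface. Those lower included probes for plasminogen (Plg, -3.22), the plasminogen activator Plat (-1.75 and -1.12), the Adam10 partner Tspan17 (-2.09) and the Mmp inducer Bsg (-1.18). The other Tspan genes listed did not share the low value of Tspan17. Tspan14 (0.45) and a Tspan33 probe (0.80) passed as higher and Tspan5 (-0.39) as lower, while Tspan15 (-0.01) and the other Tspan33 probe (-0.02) did not pass. The second Plg probe read -0.17 and was well above background on 1 of 3 arrays, the second St14 probe read 0.29, and the third Plat probe, in neither channel above background, read -0.08. Urokinase (Plau), which starts the plasmin cascade that activates several Mmps, passed as higher with 0.40 and 0.47. Furin, the convertase that activates membrane-type Mmps and Adams, had a mean log2 ratio of -0.05 (adjusted p 0.443 by limma), and the urokinase receptor Plaur had 0.01 and -0.06. Reck, a membrane inhibitor of Mmps, had a mean of -0.36 (adjusted p 0.00302). Serpins, another family of protease inhibitors, had 65 probes for 50 genes, of which 1 was called higher by 1 log2 unit and 4 lower (2.26% and 3.83% of all probes were). By adjusted p alone, 8 of the 65 passed as higher and 23 as lower (25.7% and 24.6% of all probes did).

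With any array left out, 2 member probes were higher and 6 to 7 lower by 1 log2 unit, while other ways of forming the ratio gave up to 8 higher and 20 lower. The plot of the alternatives shows the named probes. The called probes for Timp2, Adam19, Mmp2, Mmp3, Adam8, Adam15, Adamts2, Adamts9 and Adamts15 kept their sign under each of the 13 alternatives. Bright probes with small ratios, such as those of Timp1, Adam9, Mmp11 and Mmp14, did not with median centring.

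**Figure D4:**
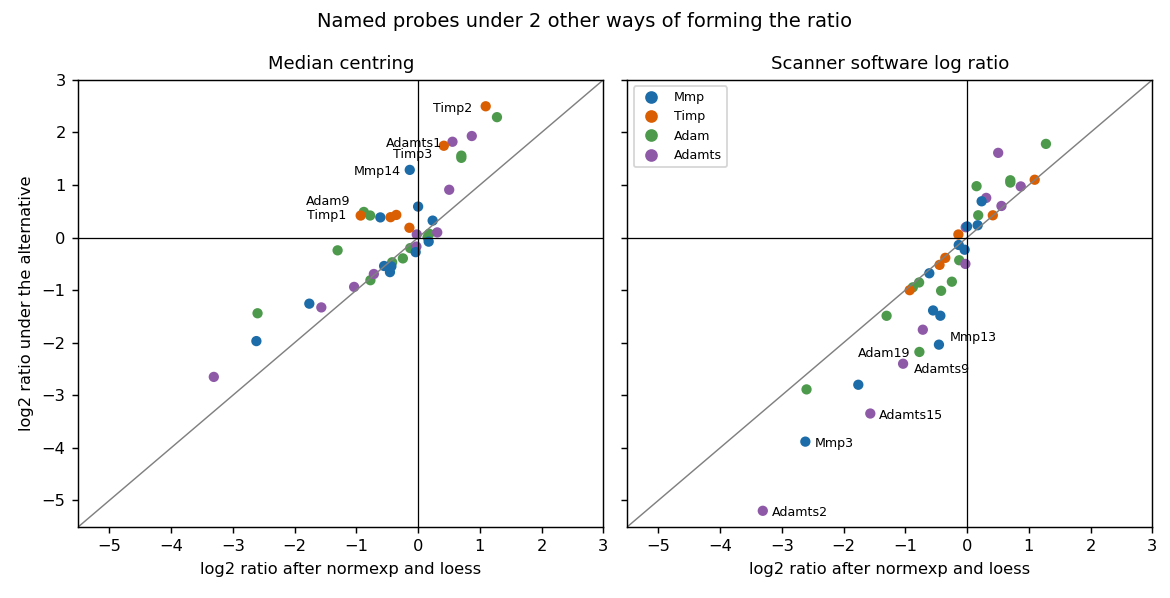
Mean log2 ratio of the 40 named probes with median centring (left) and with the ratio of the scanner software (right), on the vertical axis, against the ratio after normexp and loess on the horizontal axis; the grey line marks equal values and colours mark the family. With median centring the bright probes lie above the line, and with the scanner software's ratio the lower probes lie below it, down to -5.20 for Adamts2.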

How the data were processed

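The samples were 3 Agilent arrays with 2 colours, 1 slide each, all of EpH4-PR cells. The authors deposited the scanner output of Agilent Feature Extraction, in which each spot has an intensity and a local background intensity in both channels as well as the log10 ratio of red (EpH4-PR) over green (reference). A table of a comparison the authors made (log10 ratio, ratio, fold change, p-value and intensities of unnamed sides) was not used.

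Mean spot intensities were background-corrected by normexp (offset 50) and normalized by loess within arrays with limma 3.58.1 in R 4.3.3. Control spots and spots marked as outliers (3 to 150 an array, none of a member) were left out, spots of a probe were averaged and probes of a gene were kept apart. Ratios were tested against 0 by lmFit and eBayes over 41171 probes with a value, with Benjamini-Hochberg adjustment. A probe passed at an adjusted p under 0.05. The fit was tested on simulated data. Over the 118 probes the arrays had a Pearson correlation of 0.908 to 0.947 across probes, which are not independent replicates. The deposited intensities hold no counts, and the number of arrays limits the precision. Tables and figures used Python 3.11.15 and pandas 2.3.3.

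Symbols come from the files. The 91 members' probes with a RefSeq accession all matched a RefSeq gene, as did 21444 of 22572 over all probes. The text names member probes at least 1 log2 unit from the reference that the scanner software marked as above background in both channels on every array, every probe of 23 listed genes, and genes whose measured probes differed by at least 1 log2 unit; probes with a bound of at least 2-fold were to be named too, but there were 0, the largest of 19 bounds being 1.40-fold. The family to describe, its members and the lists were chosen with earlier results of these data known, though the rule for membership uses only names. Alternatives were the background offset, median centring, the scanner software's ratio, scale normalization, the median spot intensity, outlier spots kept, a filter on dim probes, an intensity trend, a plain test of each probe alone and each array left out. The comparison with negative control spots was added after the values were seen. A planned search of protein sequences was not run. The values of 1 gene in the list of regulators are counted but not reported here.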

Additional observations from a re-analysis of the deposited data

How the results depend on the processing

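Of the 40 named probes, 15 kept their sign and their side of the threshold under all 13 alternatives. In the plain test of each probe alone after Benjamini-Hochberg adjustment, 9 of the 40 no longer passed. The 2 higher member probes became 4 with normexp offset 0, 8 with median centring, 6 with the ratio of the scanner software and 1 with the plain test of each probe alone after Benjamini-Hochberg adjustment, where Adam19 was lost. The 7 lower member probes became 19 with offset 0 and 20 with the scanner's ratio. Among regulators, the 5 higher probes became 10 with offset 0, 12 with median centring and 10 with the scanner's ratio, and the 6 lower ones became 1 with median centring. Median centring turned the sign of 11 probes, namely Adam9 (0.49), Adam10 (0.42), Mmp11 (0.38), both Mmp14 probes (1.29 and 0.59), the 3 Timp1 probes (0.39, 0.43 and 0.42), Timp4 (0.19), Mmp10 (-0.08) and the Adamts2 probe nearest to 0 (0.06). The cause was not tested. With each array left out in turn, member probes numbered 2 higher and 6 to 7 lower, regulators 5 to 6 higher and 6 lower, and probes well above background 77 to 79, against 75 on all 3 arrays. That last count was 84 on at least 2 arrays, 92 on at least 1 and 69 above negative control spots. A slide block could not be fitted, with 1 array on each slide. No paired analysis was possible because all arrays belong to 1 group. Dim spots limit the ratios: 67 of 118 member probes bore the mark of the scanner software in both channels on every array. Of those 67, only 25 were above the negative control spots in the reference channel on all arrays.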
